A study of Rattus norvegicus with 9 samples.

Results

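Krüppel-like factors are zinc finger transcription factors, and 10 of their genes (Klf2, Klf3, Klf4, Klf5, Klf6, Klf7, Klf9, Klf10, Klf13 and Klf15) were followed here through rat adipose-derived stromal cells (ADSCs) in 3 settings. The 10 genes were picked by symbol from the 21923 genes of the deposited table, each matched 1 row, and all 10 were among the 12364 genes with enough counts to be tested. All cells were primary ADSCs, which are plastic-adherent mesenchymal cells, taken from inguinal fat of rats carrying a GFP transgene and expanded in serum-containing DMEM/F12. The Con group was sampled at passage 4. For the Vitro group, passage 4 cells went on in incubator culture, with passaging, and were sampled when the Vivo group was. For the Vivo group, passage 4 cells were placed in the fat of nude mice, which lack a thymus, and recovered 7 days later. Each group had 3 libraries of 17484607 to 18355242 counts. Nothing in the labels ties replicates to distinct rats, mice or cultures, and p-values therefore describe variation among libraries that may be technical. How injected rat cells were parted from mouse host cells is also not stated, and the reads were aligned to a rat genome.

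All Krüppel-like factors share a carboxy-terminal DNA-binding domain of C2H2 zinc fingers that recognises GC-rich and CACCC elements, and differ in the amino-terminal part that recruits activators or repressors. In fat the family is known as a relay of adipocyte differentiation: in mouse preadipocytes KLF4 acts early and upstream of Cebpb, and KLF5 acts upstream of Pparg. KLF6, KLF9 and KLF15 favour differentiation, and KLF2, KLF3 and KLF7 restrain it. Several members, KLF2, KLF4, KLF6 and KLF10 among them, are also rapid-response genes with short-lived transcripts, and KLF9 and KLF15 are induced by glucocorticoids.

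Klf4 was the member that separated the re-isolated cells from both cultures, at 2.05 times its Con level and 2.28 times its Vitro level in the fit. Klf10 was also higher in Vivo than in the starting culture, with the longer-cultured cells in between. Klf9 averaged lowest in continued culture without passing the test, and Klf3, Klf6 and Klf9 were higher in Vivo replicates 1 and 2 than in Vivo replicate 3. Klf7 and Klf13 stood near their culture levels in Vivo replicates 1 and 2 and far below them in Vivo replicate 3. Klf2, Klf5 and Klf15 passed no test between groups in the fit to all 9 libraries.

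Levels below are CPM, read counts relative to library size, scaled by the trimmed mean of M-values (TMM), and group levels are means ± SD (n = 3). Each log2 fold change carries its SE. The edgeR quasi-likelihood test was run on all 12364 genes, its p-values were adjusted by Benjamini-Hochberg, and a gene is called below 0.05. The summed level of the 10 members was 328 to 368 CPM in Con, 307 to 323 CPM in Vitro and 416 to 533 CPM in Vivo, so the Vivo libraries lay above all cultured ones. That order rested on Klf4: without it the sum was 251 to 290 CPM in Con, 240 to 254 CPM in Vitro and 312, 362 and 240 CPM in Vivo, and Vivo replicate 3 lay below every Con library. These are bulk libraries, in which a change in the mix of cells and a change in RNA per cell cannot be told apart.

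**Figure D1:**
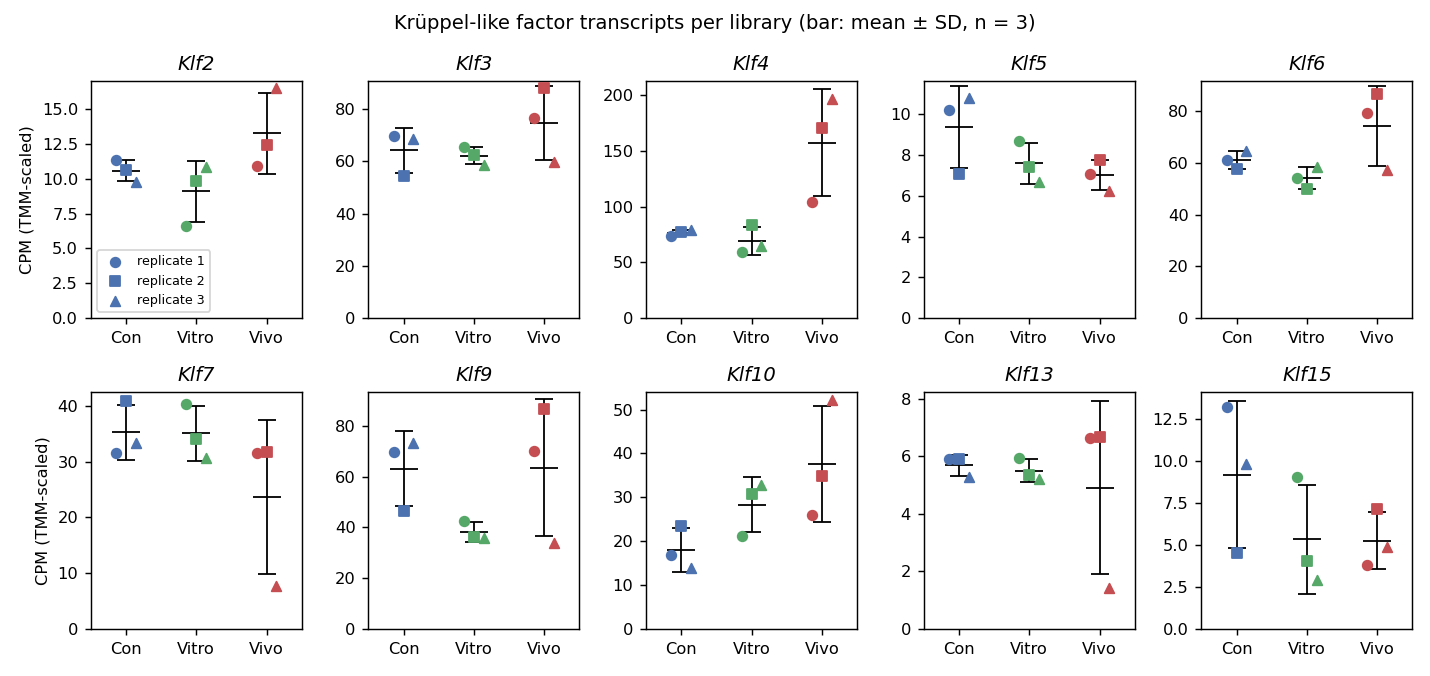
TMM-scaled CPM of each of the 10 members (one panel each, linear axis from 0) in the 3 Con, 3 Vitro and 3 Vivo libraries, with marker shape for the replicate number and bars for mean ± SD. Klf4 is at 104 to 197 CPM in Vivo against 59.2 to 83.2 CPM in the cultured libraries, and Vivo replicate 3 is the lowest library for Klf5, Klf7, Klf9 and Klf13.

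The start-site regions of Klf3, Klf6 and Klf9 are shown because the differences of these 3 members between Vivo and the cultures were larger without Vivo replicate 3. RefSeq windows (build GRCr8, not the build of the counts) matched 7 of the 10 members. Klf2, Klf10 and Klf13 had no entry, and the Klf4 window was not used here. Each line gives the 250 bases before the annotated start, on the gene's strand. The Klf3 window is chr14:43850827-43851076 on the minus strand, the Klf6 window is chr17:69458479-69458728 on the minus strand, and the Klf9 window is chr1:230126396-230126645 on the plus strand. Capitals mark matches on either strand to CACCC (the Krüppel-like factor element), GGGCGG (the Sp1 GC box), TGACGTCA (the cyclic AMP element), TGANTCA or the CArG box (the serum response factor site). TGANTCA is the AP-1 site, TGA(C/G)TCA, with its central base left open.
Klf3: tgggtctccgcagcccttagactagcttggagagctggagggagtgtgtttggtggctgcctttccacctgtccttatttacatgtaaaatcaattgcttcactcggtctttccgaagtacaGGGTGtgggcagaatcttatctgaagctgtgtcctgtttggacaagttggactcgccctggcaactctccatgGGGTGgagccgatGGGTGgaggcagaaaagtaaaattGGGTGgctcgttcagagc
Klf6: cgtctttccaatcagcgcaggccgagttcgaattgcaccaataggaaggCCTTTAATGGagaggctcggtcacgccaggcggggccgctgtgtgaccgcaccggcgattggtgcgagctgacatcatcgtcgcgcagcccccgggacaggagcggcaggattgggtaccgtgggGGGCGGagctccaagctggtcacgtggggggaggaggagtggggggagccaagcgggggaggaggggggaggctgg
Klf9: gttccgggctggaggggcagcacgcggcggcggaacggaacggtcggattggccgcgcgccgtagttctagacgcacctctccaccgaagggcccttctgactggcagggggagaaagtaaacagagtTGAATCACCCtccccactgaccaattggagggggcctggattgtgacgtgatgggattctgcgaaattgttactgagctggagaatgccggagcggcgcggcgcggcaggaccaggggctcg
The Klf3 window held 4 CACCC matches, all of them as GGGTG on the gene's strand, at 128, 55, 42 and 18 bases before the start (first base of each match), and no match to the other motifs. CACCC alone is common: it occurred in 49.2% of 33469 windows of the same length. The Klf6 window held 1 CArG box beginning 201 bases before the start, a match found in 1.5% of windows, and 1 GGGCGG beginning at 76, found in 30.5%. The Klf9 window held 1 TGANTCA beginning at 122 and 1 CACCC beginning at 117, which share 2 bases. This TGANTCA match has A at its centre, not the C or G of the AP-1 site. TGANTCA occurred in 6.34% of windows, and TGACGTCA, in 1.59%, was not among the letters of these 3. These matches describe the sequence and are not evidence of binding.

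Klf4 encodes a factor used with Oct4, Sox2 and Myc to reprogram fibroblasts, and is known in mesenchymal cells as a brake on smooth muscle gene expression. Klf4 (ENSRNOG00000016299) was at 73.9, 77.5 and 78.8 CPM in Con replicates 1, 2 and 3, at 59.2, 83.2 and 64.9 CPM in Vitro and at 104, 171 and 197 CPM in Vivo. Every Vivo library was above every cultured library, and the Vivo libraries were spread more widely (SD 47.7 CPM) than the Con libraries (SD 2.56 CPM). Its log2 fold change was 1.04 ± 0.22 against Con (95% interval 0.54 to 1.53, adjusted p = 0.021) and 1.19 ± 0.22 against Vitro (0.69 to 1.69, adjusted p = 0.0092). The call against Vitro held in all 18 alternative fits, with adjusted p from 3.3e-05 to 0.046. The call against Con held in 15 of 18 and was lost without Con replicate 1 (adjusted p = 0.084), Con replicate 3 (adjusted p = 0.084) or Vivo replicate 2 (adjusted p = 0.056). Between the cultures the log2 difference was -0.15 ± 0.22, with a 95% interval from -0.64 to 0.34 (adjusted p = 0.86).

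Klf10, first described as a TGF-beta-inducible early gene, encodes a repressor of the Sin3-binding branch of the family. Klf10 (ENSRNOG00000006118) was at 16.8, 23.5 and 13.8 CPM in Con, at 21.2, 30.8 and 32.9 CPM in Vitro and at 26.0, 34.8 and 52.1 CPM in Vivo. The Vivo libraries lay above all Con libraries and overlapped with Vitro, and Vitro overlapped with Con. Against Con the log2 fold change was 1.06 ± 0.29 in Vivo (0.41 to 1.71, adjusted p = 0.047) and 0.65 ± 0.29 in Vitro (0.01 to 1.29, adjusted p = 0.43). Vivo and Vitro differed by 0.41 ± 0.29 (-0.23 to 1.05, adjusted p = 0.38). Neither step between neighbouring groups passed the adjusted threshold in this fit, although the interval for Vitro against Con excludes 0. The call was near the threshold: it held in 10 of 18 alternative fits and was lost without Con replicate 1 or 3, Vitro replicate 2 or 3, or Vivo replicate 2 or 3, with adjusted p = 0.067 to 0.18, and when Vitro was left out of the fit (adjusted p = 0.082) and on log2(FPKM + 1) in limma (adjusted p = 0.062).

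DESeq2, which called 16.9% of genes against Con, also called Klf4 and Klf10 there. With Klf4 and Klf10, 2 of 10 members were called against Con and 1 of 10 against Vitro. Of all tested genes, 9.73% were called in Vivo against Con and 10.9% in Vivo against Vitro. Higher calls alone were 5.17% and 5.38% of genes, lower calls 4.56% against Con. Libraries did not overlap for 2 members against Con (Klf4 and Klf10), where 33.5% of tested genes did not overlap, and for 2 members against Vitro (Klf2 and Klf4), where the share was 35.2%. Testing for any difference among the 3 groups called 1 member, Klf4 (adjusted p = 0.013), with Klf10 at adjusted p = 0.088, against 10.0% of tested genes. The median log2 fold change of the 10 members was 0.11 against Con and 0.34 against Vitro, beside medians over all tested genes of 0.01 and 0.02. Both comparisons use the same Vivo libraries.

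**Figure D2:**
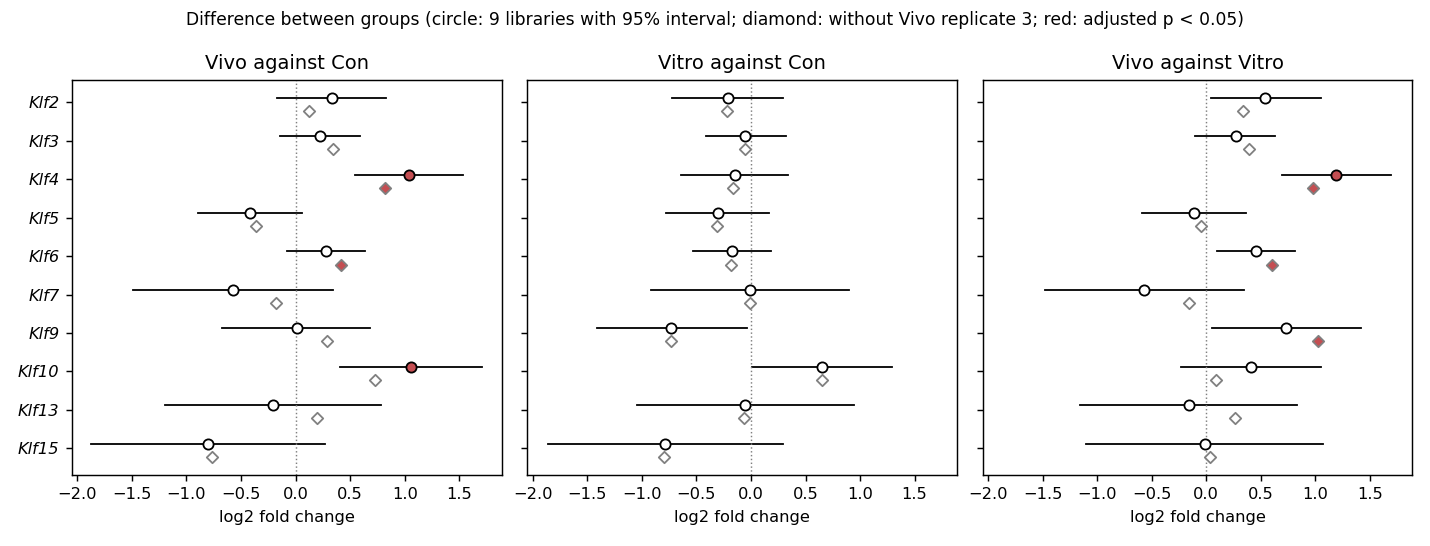
Log2 fold change of each member (rows) in the 3 comparisons (panels), with circles and 95% intervals from all 9 libraries and diamonds from the fit without Vivo replicate 3. Red marks an adjusted p below 0.05: Klf4 is red in both Vivo comparisons in both fits, Klf10 only against Con with all 9 libraries, and Klf6 and Klf9 only in fits without Vivo replicate 3.

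Klf6, Klf9 and Klf3 changed place with Vivo replicate 3. Klf6, also known as core promoter element binding protein, was at 61.2, 57.6 and 64.5 CPM in Con, at 54.0, 50.0 and 58.6 CPM in Vitro and at 79.4, 86.5 and 57.1 CPM in Vivo. Vivo replicates 1 and 2 were above every cultured library, and Vivo replicate 3 lay among them. The log2 fold change of Klf6 (ENSRNOG00000016885) was 0.28 ± 0.16 against Con (adjusted p = 0.29) and 0.46 ± 0.16 against Vitro (adjusted p = 0.10). Without Vivo replicate 3 it was 0.42 ± 0.10 (adjusted p = 0.029) and 0.60 ± 0.10 (adjusted p = 0.0066), and with offsets for each library's trend with gene length it was 0.45 ± 0.10 (adjusted p = 0.020) and 0.68 ± 0.10 (adjusted p = 0.0024). Of all tested genes, 13.2% were called against Con and 13.4% against Vitro with these offsets. Sample quality weights in limma, which called 28.0% and 23.1% of genes, also gave a call for Klf6 in both comparisons (adjusted p = 0.013 and 0.0015). Over the 18 alternatives the adjusted p ran from 0.013 to 0.56 against Con and from 0.0015 to 0.57 against Vitro.

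Klf9, a glucocorticoid- and thyroid hormone-responsive repressor, was the member whose Vitro libraries all lay below Con. Klf9 (ENSRNOG00000014215) was at 69.9, 46.4 and 73.3 CPM in Con, at 42.6, 36.3 and 35.8 CPM in Vitro and at 70.1, 86.8 and 33.8 CPM in Vivo. Vivo held both the highest and the lowest of the 9 values. The log2 fold change was -0.73 ± 0.31 for Vitro against Con (-1.41 to -0.04, adjusted p = 0.41) and 0.73 ± 0.31 for Vivo against Vitro (0.05 to 1.42, adjusted p = 0.16). Neither passed, although the unadjusted p was 0.039 and 0.038. Without Vivo replicate 3 the difference between Vivo and Vitro was 1.02 ± 0.19 (adjusted p = 0.012), while over all alternatives its adjusted p ran from 0.0017 to 0.35.

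Klf3, a repressor that works through the corepressor CtBP, was at 69.7, 54.2 and 68.6 CPM in Con, at 65.3, 62.3 and 58.7 CPM in Vitro and at 76.5, 88.0 and 59.8 CPM in Vivo. Its Vivo replicates 1 and 2 were above all other libraries. The log2 fold change of Klf3 (ENSRNOG00000002163) was 0.22 ± 0.16 against Con (adjusted p = 0.41) and 0.27 ± 0.16 against Vitro (adjusted p = 0.31), and 0.34 ± 0.13 and 0.39 ± 0.13 without Vivo replicate 3 (adjusted p = 0.11 and 0.078). In that fit 2 members were called against Con (Klf4 and Klf6) and 3 against Vitro (Klf4, Klf6 and Klf9), where 13.6% and 13.3% of tested genes were called. Klf10 was not called there (log2 fold change 0.73 ± 0.25 against Con, adjusted p = 0.089).

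Klf7 and Klf13 were set apart by 1 library. Klf7, which in mouse supports sensory neuron survival and in human preadipocytes inhibits differentiation, was at 31.6, 40.9 and 33.4 CPM in Con, at 40.4, 34.1 and 30.7 CPM in Vitro and at 31.5, 31.8 and 7.77 CPM in Vivo. Klf13, a regulator of lymphocyte and heart genes, was at 5.91, 5.89 and 5.27 CPM in Con, at 5.94, 5.35 and 5.21 CPM in Vitro and at 6.63, 6.65 and 1.43 CPM in Vivo. For both genes Vivo replicate 3 was far below the other 8 libraries, which lay at 30.7 to 40.9 CPM for Klf7 and at 5.21 to 6.65 CPM for Klf13. The log2 fold change against Con was -0.57 ± 0.41 for Klf7 (ENSRNOG00000046242, adjusted p = 0.40) and -0.21 ± 0.44 for Klf13 (ENSRNOG00000015822, adjusted p = 0.79). Without Vivo replicate 3 it was -0.18 ± 0.15 (adjusted p = 0.44) and 0.20 ± 0.17 (adjusted p = 0.45), so the sign for Klf13 rested on that library.

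Vivo replicate 3 was compared with the mean of Vivo replicates 1 and 2 on log2 CPM. The difference was -2.13 for Klf13, -2.01 for Klf7, -1.20 for Klf9, -0.54 for Klf6, -0.46 for Klf3, -0.24 for Klf5 and -0.10 for Klf15. It was 0.51 for Klf2, 0.55 for Klf4 and 0.79 for Klf10. Over all tested genes the SD of this difference was 0.77, against 0.46 for replicate 1 minus replicate 2, and 11.4% of genes lay below -1, so the values of Klf7 and Klf13 were at percentiles 1.86 and 1.46. The gene length implied by the authors' counts and FPKM values was 9094 bases for Klf6, 6265 for Klf3 and 4556 for Klf7, and 1015 for Klf2, 3253 for Klf4 and 3724 for Klf10. It was 1315 for Klf13, 2841 for Klf9, 3561 for Klf5 and 2799 for Klf15, with 848 to 1594 across libraries for Klf13. Of the tested Klf genes outside the 10, the difference of Vivo replicate 3 was -2.33 for Klf12, 0.05 for Klf11 and 0.68 for Klf16. It was -2.20 for Ep300, which encodes a histone acetyltransferase that coactivates several members. The cause of these differences was not tested.

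**Figure D3:**
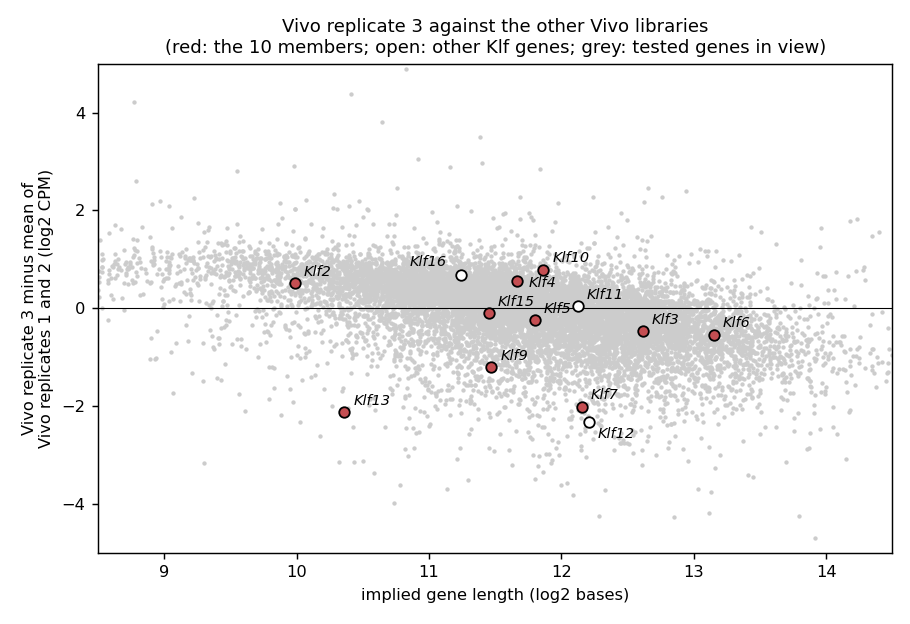
Difference of Vivo replicate 3 from the mean of Vivo replicates 1 and 2 (log2 CPM, vertical) against implied gene length (log2 bases, horizontal) for the tested genes within the axis limits (grey), the 10 members (red) and 3 other Klf genes (open). Klf13 and Klf7 sit at -2.13 and -2.01 and Klf10 at 0.79.

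The remaining members were low or variable. Klf2, an endothelial and T cell quiescence factor that represses Pparg in mouse preadipocytes, was at 11.3, 10.6 and 9.79 CPM in Con, at 6.64, 9.83 and 10.8 CPM in Vitro and at 10.9, 12.4 and 16.5 CPM in Vivo. Vivo was above Vitro in every library by a narrow margin, with a log2 fold change of 0.54 ± 0.23 (0.04 to 1.05, adjusted p = 0.16), which was 0.34 ± 0.21 without Vivo replicate 3 (adjusted p = 0.33). Against Con the difference for Klf2 (ENSRNOG00000014205) was 0.33 ± 0.23 (-0.17 to 0.83, adjusted p = 0.38).

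Klf5, a growth-promoting factor of epithelium and smooth muscle, was at 10.2, 7.07 and 10.8 CPM in Con, at 8.68, 7.40 and 6.69 CPM in Vitro and at 7.07, 7.74 and 6.23 CPM in Vivo. Its groups overlapped, and the log2 fold change of Klf5 (ENSRNOG00000008785) for Vivo against Con was -0.42 ± 0.21 (-0.89 to 0.06, adjusted p = 0.24). Klf15, an inducer of the insulin-responsive glucose transporter and of amino acid catabolism, was at 13.2, 4.53 and 9.85 CPM in Con, at 9.03, 4.05 and 2.92 CPM in Vitro and at 3.80, 7.14 and 4.86 CPM in Vivo. Con replicate 2 lay far below the other Con libraries, and no group stood clear of another. The log2 fold change of Klf15 (ENSRNOG00000017808) was -0.80 ± 0.48 for Vivo against Con (-1.87 to 0.27, adjusted p = 0.31) and -0.79 ± 0.48 for Vitro against Con (-1.86 to 0.29, adjusted p = 0.59), intervals that include a fall of more than 1 on the log2 scale as well as no change.

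The comparison of Vitro with Con sets continued culture against the starting culture, and time in culture, passaging and time of sampling cannot be told apart in it. It called none of the 10 members in edgeR, where 0.0324% of tested genes were called. At an unadjusted p below 0.05 there were 2 members, Klf9 (lower) and Klf10 (higher), where 11.4% of tested genes passed. DESeq2 called none, where it called 2.42% of genes. With sample quality weights in limma, which gave Vivo replicate 3 a weight of 0.0942 and called 21.8% of genes, 3 members passed: Klf9 (-0.87 ± 0.16, adjusted p = 0.0067), Klf10 (0.94 ± 0.19, adjusted p = 0.0086) and Klf15 (-1.27 ± 0.38, adjusted p = 0.035). Vitro and Con values did not overlap for 1 member, Klf9, where 21.4% of tested genes did not overlap. The median log2 fold change of the members was -0.16, beside 0.00 over all tested genes.

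Between genes, levels were compared per length with the authors' FPKM values. In Con, Klf4 (22.8 ± 1.23 FPKM) and Klf9 (21.2 ± 4.53 FPKM) led and did not differ beyond their spread. Klf2 (10.1 ± 1.14 FPKM) and Klf3 (9.93 ± 1.29 FPKM) came next, then Klf7 (7.58 ± 1.09 FPKM) and Klf6 (6.39 ± 0.367 FPKM), and then Klf10 (4.74 ± 1.38 FPKM), Klf13 (4.47 ± 0.647 FPKM), Klf15 (3.05 ± 1.44 FPKM) and Klf5 (2.54 ± 0.494 FPKM). In Vivo, Klf4 reached 32.7 to 65.2 FPKM and was the highest member in each of the 3 libraries, while Klf9 was at 25.3, 31.6 and 12.2 FPKM. In Vitro replicate 1 Klf2 was at 3.99 FPKM, against 8.86 to 18.3 FPKM in the other 8 libraries. The ratio of counts to FPKM was not constant for every member, with implied lengths of 904 to 1600 bases across libraries for Klf2, 8393 to 11375 for Klf6 and 848 to 1594 for Klf13, so the FPKM order of these members is less certain than their CPM.

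Among the other Krüppel-like genes, Klf11, Klf12 and Klf16 were tested and none was called in Vivo against Con by edgeR, at an unadjusted p below 0.05, or by DESeq2. Klf16, a Sin3-binding repressor and the most abundant of them, was at 38.2 ± 5.25 CPM in Con and 43.0 ± 12.5 CPM in Vivo (0.17 ± 0.20, adjusted p = 0.61). Klf12 was at 9.13, 13.5 and 2.11 CPM in Vivo and at 12 to 15.6 CPM in Con. Klf1, the erythroid factor, had 0 to 9 counts per library and Klf8 had 1 count in all. Klf14 and Klf17 had 0 counts in every library, which allows up to 0.163 to 0.172 CPM per library before scaling. Of the 9 related Sp factors 5 were tested and 1 fell against Con, where 9.73% of all tested genes were called. It was Sp7, which directs osteoblast formation, from 7.15 to 2.13 CPM on average (-1.74 ± 0.32, adjusted p = 0.011). Sp3 was at 61.5, 73.6 and 21.5 CPM in Vivo and was not called against Con (0.42 ± 0.35, adjusted p = 0.47). Without Vivo replicate 3, Sp3 was called higher against Con (0.77 ± 0.14, adjusted p = 0.012) and Vitro (0.71 ± 0.14, adjusted p = 0.013). In that fit 13.6% and 13.3% of tested genes were called.

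Cofactors and upstream inputs of the family held few calls. Of 11 cofactor and turnover genes, including the corepressors Ctbp1, Ctbp2, Sin3a and Sin3b and the ubiquitin ligase genes Wwp1 and Fbxw7, edgeR called none against Con, 1 had an unadjusted p below 0.05 (27.4% of all tested genes did), and DESeq2 called none. Without Vivo replicate 3 the corepressor gene Sin3a was called higher against Con (0.31 ± 0.08, adjusted p = 0.041). Against Vitro edgeR called none, with 1 at an unadjusted p below 0.05, where 27.7% of all tested genes passed. DESeq2 called 1 lower there, where it called 17.2% of genes. Fbxw7, whose product marks several Klf proteins for degradation, averaged 6.06 CPM in Vivo and 11.3 CPM in Vitro without overlap (-0.89 ± 0.27, adjusted p = 0.063, and 0.045 without Vivo replicate 3). Hdac1, a histone deacetylase and the most abundant of them in Vivo, was at 177 CPM in Con and 193 CPM in Vivo (0.12 ± 0.13, adjusted p = 0.60). Of 6 tested genes of the Erk5, Mef2 and Srf inputs, which drive Klf2 and Klf4 in other cells, none was called by edgeR or DESeq2 in Vivo against Con and none had an unadjusted p below 0.05 there. Against Vitro 1 fell: Mef2c, a MADS-box factor of muscle and endothelium, was at 13.8, 12.6 and 10.2 CPM in Vivo and at 16.9, 18.7 and 20.9 CPM in Vitro (-0.63 ± 0.17, adjusted p = 0.039). Srf averaged 86.5 CPM in both Vivo and Con (0.00 ± 0.18, adjusted p = 1.0), and Mapk7, which encodes Erk5, had 0 to 2 counts per library.

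Calls among companion pathways are to be read against the 9.73% of all tested genes called in Vivo against Con (5.17% higher, 4.56% lower). Of 9 tested adipogenic factors edgeR called none against Con, with 1 at an unadjusted p below 0.05 and 1 lower by DESeq2. Cebpd, an early adipogenic factor, was at 241 CPM in Con and 170 CPM in Vivo (-0.50 ± 0.23, adjusted p = 0.18). Cebpb averaged 129 CPM in both Con and Vivo (0.01 ± 0.36, adjusted p = 0.99), and Pparg had too few counts to be tested. Of 9 tested glucocorticoid-responsive genes 1 rose and 1 fell: Sgk1, a serum- and glucocorticoid-induced kinase, rose from 76.5 to 139 CPM (0.87 ± 0.21, adjusted p = 0.032) and Tsc22d3, which encodes the glucocorticoid-induced leucine zipper, fell from 41.5 to 20.3 CPM (-1.03 ± 0.24, adjusted p = 0.028). Of 8 TGF-beta-responsive genes 2 fell and none rose: the latent TGF-beta binding protein gene Ltbp2 (-1.0 ± 0.17, adjusted p = 0.0083) and the matricellular gene Ctgf (-0.97 ± 0.20, adjusted p = 0.018). DESeq2 called 2 of these 8 higher and 2 lower. The list medians were -0.15, -0.26 and -0.13, beside 0.01 over all tested genes. Against Vitro, where 10.9% of genes were called, edgeR called none of the 9 adipogenic genes. At an unadjusted p below 0.05 there were 5, where 27.7% of all tested genes passed. DESeq2, which called 17.2% of genes, called 1 of the 9 higher. Cebpb averaged 129 CPM in Vivo and 62.2 CPM in Vitro (1.05 ± 0.36, adjusted p = 0.095, and 0.022 without Vivo replicate 3). In Vivo against Vitro 3 glucocorticoid-responsive genes rose (Sgk1, Mt2A and Cdkn1c) and, of the TGF-beta-responsive genes, 1 rose (Tgfbi) and 2 fell (Ctgf and Ltbp2).

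Immediate early genes, which cells induce within minutes of stimulation or dissociation, were higher in Vivo than in either culture. Their summed level over 17 genes was 977 to 1370 CPM in Con, 763 to 822 CPM in Vitro and 2390 to 4490 CPM in Vivo, and 13 of the 17 rose against Con and none fell, with a median log2 fold change of 1.46. Against Vitro 14 rose and none fell, with a median of 2.35. In Vitro against Con the direction was the other one, with a median of -0.67, 1 gene called lower (Egr3) and 9 of 17 at an unadjusted p below 0.05. In that comparison the log2 difference was -0.15 for Klf4 and 0.65 for Klf10. Fos was at 6.88, 6.40 and 12.6 CPM in Con and at 145, 256 and 405 CPM in Vivo. Jun was at 25.0 to 27.3 CPM in Con and at 135, 303 and 255 CPM in Vivo. Fosb rose by 6.74 ± 0.56 on the log2 scale. Within Vivo the summed level was lowest in replicate 1 (2390 CPM), then 3260 CPM in replicate 2 and 4490 CPM in replicate 3. Klf2, Klf4 and Klf10 had the same order, over 3 libraries only. The part of this response in the Klf4 and Klf10 results was not tested.

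Markers of other cells were low, with exceptions. The 9 endothelial markers summed to 6.11 to 10.2 CPM in Con, 6.12 to 10.9 CPM in Vitro and 22.5 to 29.0 CPM in Vivo. Of the 2 tested, Kdr, the VEGF receptor gene, rose from 1.14 to 14.8 CPM (3.69 ± 0.30, adjusted p = 2.3e-04). The other, Tek, averaged 5.64 CPM in Con and 8.90 CPM in Vivo without overlap (0.66 ± 0.27, adjusted p = 0.16). Both had an unadjusted p below 0.05, as did 27.4% of all tested genes. Cldn5 had 0 counts in every library and Cdh5 had 6, 1 and 0 counts in the Vivo libraries. The 6 mural markers summed to 35.6 to 37.1 CPM in Con, 46.6 to 49.4 CPM in Vitro and 67.1 to 117 CPM in Vivo, with 2 of 5 tested higher against Con: Notch3 (3.17 ± 0.63, adjusted p = 0.016) and Cspg4 (1.70 ± 0.29, adjusted p = 0.0086). DESeq2 called 4 of the 5 higher, and 4 had an unadjusted p below 0.05, with Kcnj8 (1.66 ± 0.53, adjusted p = 0.076) and Abcc9 (1.19 ± 0.42, adjusted p = 0.099) as the others without overlap. In Vitro against Con the higher sum came from Cspg4 (log2 fold change 1.28 ± 0.29) and Mcam (0.59 ± 0.28). The other tested markers were lower there: Notch3 (-3.55 ± 0.9), Kcnj8 (-2.2 ± 0.61) and Abcc9 (-1.47 ± 0.44). The median of the 5 was -1.47, edgeR called none, and DESeq2 called 3 lower and 1 higher. In Vivo against Vitro 3 of the 5 rose (Notch3, Kcnj8 and Abcc9), the same 3 that were lower in Vitro than in Con. The part of these marker changes in the Klf4 and Klf10 results was not tested.

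Immune, epithelial and adipocyte markers were not called by edgeR in Vivo against Con. The 8 immune markers summed to 21.7 to 25.1 CPM in Con, 21.9 to 27.6 CPM in Vitro and 27.1 to 32.0 CPM in Vivo. Most of that was Cd14 (20.6 CPM in Con, 23.8 CPM in Vivo, adjusted p = 0.40), and Ptprc had 0 or 1 count per Vivo library and Cd3e none in any library. Of the 3 tested, 1 had an unadjusted p below 0.05 and was higher by DESeq2. It was Csf1r, at 1.62 CPM in Con and 4.25 CPM in Vivo without overlap (1.39 ± 0.39, adjusted p = 0.053). Cd68 averaged 0.779 CPM in Con and 1.57 CPM in Vivo, also without overlap (1.00 ± 0.59, adjusted p = 0.30). The 6 epithelial markers summed to 1.58 to 8.58 CPM in Con, 0.641 to 1.13 CPM in Vitro and 3.80 to 5.18 CPM in Vivo, led by Krt8 (2.27 CPM in Con, 3.41 CPM in Vivo, adjusted p = 0.38). The 6 adipocyte markers summed to 0.531 to 1.77 CPM over all libraries, led by Fabp4 (0.705 CPM in Con, 0.451 CPM in Vivo, adjusted p = 0.62). In Vivo against Con neither of these 2 lists had a member called by DESeq2 or at an unadjusted p below 0.05. Against Vitro, the comparison with the firmest Klf4 call, both tested epithelial markers rose by edgeR and DESeq2. Krt8 was at 2.83 to 3.81 CPM in Vivo and 0.524 to 1.08 CPM in Vitro (2.05 ± 0.44, adjusted p = 0.017), and Krt18 had 16, 22 and 25 counts in Vivo and 1, 0 and 0 in Vitro (adjusted p = 0.027). Their part in the Klf4 result was not tested. Stromal markers matched the label: the 8 genes summed to 24500 to 41700 CPM, most of it Col1a1, at 36200 CPM in Con and 26200 CPM in Vivo (adjusted p = 0.15). None of the 8 was called by edgeR against Con. Against Vitro, where 10.9% of genes were called, Eng (1.38 ± 0.20, adjusted p = 0.0024) and Pdgfrb (0.49 ± 0.13, adjusted p = 0.045) were higher. Without Vivo replicate 3, Thy1 was called lower against Con (adjusted p = 0.023) and Vitro (adjusted p = 0.0044).

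Genes outside the family whose profile over the 9 libraries lay closest to Klf4 and Klf10 were found by the root mean square difference of centred log2 CPM. For Klf4 they were Rnf225 (0.165), Card10 (0.176), a scaffold protein gene of NF-kB signalling, and Isyna1 (0.180), which encodes inositol-3-phosphate synthase. Isyna1 was at 16.0 to 20.7 CPM in Con, 15.8 to 18.4 CPM in Vitro and 26.6, 32.7 and 52.4 CPM in Vivo. Rnf225 and Card10 were low, at up to 1.37 and 2.62 CPM. For Klf10 they were Nmral1 (0.158), LOC100909441 (0.160) and AABR07053707.1 (0.169), and Nmral1, an NADPH-sensing protein gene, was at 6.14, 7.92 and 5.62 CPM in Con, 6.0, 9.34 and 9.46 CPM in Vitro and 8.75, 11.9 and 16.6 CPM in Vivo.

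**Figure D4:**
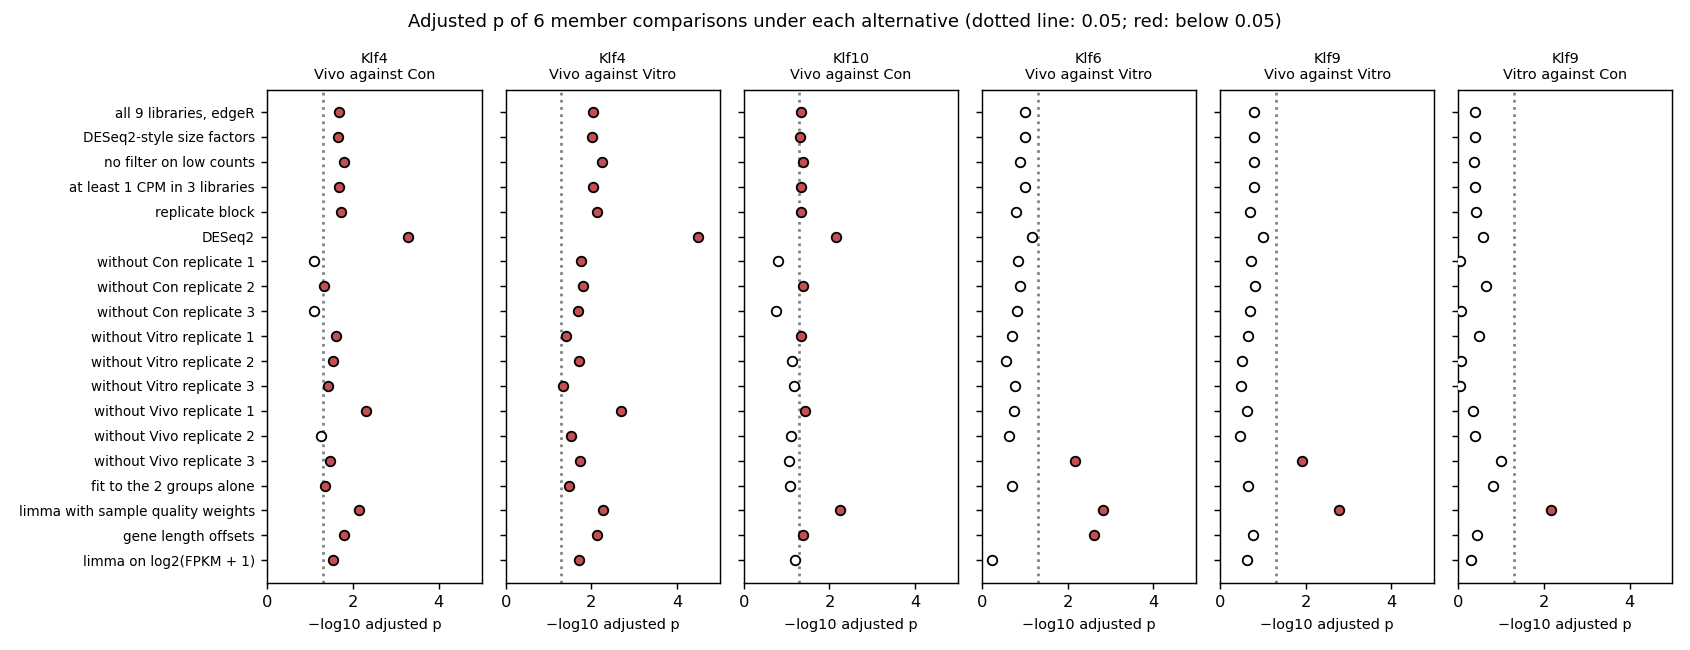
Adjusted p (as −log10, horizontal) of 6 member comparisons (panels) in the fit to all 9 libraries and in each of 18 alternatives (rows), with the dotted line at 0.05 and red below it. Klf4 against Vitro is red in every row, Klf10 against Con in 11 of 19, and Klf6 and Klf9 against Vitro in 3 and 2 of 19.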

How the data were processed

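Stranded poly(A)-selected libraries were prepared from Trizol-extracted RNA with a TruSeq kit, per the labels' protocols. HISAT2 and the Rnor_6.0 genome are named in the submitters' processing notes. The read counter, whether it used strand and the FPKM program were not given in the sources used here. Overlapping and antisense genes may therefore share reads. The deposited table gives whole-number counts per gene, not normalised, per the file headers, and FPKM made by the authors. No column of per-sample values was left without a sample.

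Counts of 12364 genes kept by filterByExpr were fitted in R 4.3.3 with edgeR 4.0.16: TMM scaling, 1 quasi-likelihood fit of the 3 groups over 9 libraries with 6 residual degrees of freedom, two-sided tests of the 3 pairwise differences and of any difference. SEs were derived from the F statistic, as |log2 fold change|/√F. Limma 3.58.1, DESeq2 1.42.0, Python 3.11.15 and matplotlib 3.10.9 were also used. The procedure was also run on simulated counts in which no library deviated as Vivo replicate 3 did, so that run does not cover this feature of the data. Log2 CPM used a prior count of 2. Implied length is counts over FPKM and library total, the median over libraries with at least 20 counts. Depth was 17484607 to 18355242 counts, so 3 counts, the limit a count of 0 allows, are 0.163 to 0.172 CPM. This covers counting error only.

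The members and the 14 other gene lists were chosen with earlier results of these data known. Named genes were the 10 members, up to 3 genes per list called in Vivo against Con with at least 5 CPM (otherwise the most abundant), and the 3 nearest genes of each called member. All other genes, such as Klf11, Klf12, Sp3, Ep300, Mef2c, Fbxw7, Sin3a, Cebpb, Pparg, Tek, Csf1r, Cd68, Krt18, Kcnj8, Abcc9, Mcam, Eng, Pdgfrb and Thy1, and those described by counts alone, were named after their values were seen.

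Alternatives were DESeq2-style size factors, no count filter, at least 1 CPM in 3 libraries, DESeq2, blocking on replicate number, leaving out each library, fits to 2 groups alone, sample quality weights, gene length offsets and limma on log2(FPKM + 1). Promoter windows are RefSeq's.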

Additional observations from a re-analysis of the deposited data

How the results depend on the processing

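Klf4 against Vitro kept its direction and call in all 18 alternatives. The number of members called in Vivo against Con was 2 with all libraries and 3 with sample quality weights, where 28.0% of genes were called. With gene length offsets Klf6 was called beside Klf4 and Klf10. The number was 1 in the fit to the 2 groups alone and 1 with limma on log2(FPKM + 1), and 0 to 2 when 1 library was left out. In Vitro against Con it was 0, was 3 with sample quality weights, and stayed 0 to 0 with each library left out. In Vivo against Vitro it was 1, was 4 with sample quality weights (Klf3, Klf4, Klf6 and Klf9, where 23.1% of genes were called) and 2 with gene length offsets, and 1 to 3 with 1 library left out. For any difference among the groups it was 1, was 2 with DESeq2, and 0 to 3 with 1 library left out. The share of all genes called in Vivo against Con, 9.73%, ran from 2.72% without Con replicate 3 to 28.0% with sample quality weights, was 16.9% with DESeq2 and 5.51% in the fit to the 2 groups alone. In Vivo against Vitro, 10.9%, it ran from 5.27% without Vitro replicate 2 to 23.1%, and in Vitro against Con, 0.0324%, from 0% to 21.8%.

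Of 540 member values under alternatives, 492 kept direction and side of the threshold, 12 gained a call, 11 lost one and 25 changed sign, all of the last uncalled. The changed signs were, for Vivo against Con, Klf9 (-0.04 with the replicate block, -0.01 with gene length offsets, -0.28 to 0.29 with 1 library left out), Klf13 (0.20 with quality weights, -0.50 to 0.20) and, outside the members, Srf (-0.01 with size factors, with no filter and with DESeq2, 0.00 with 2 groups alone, -0.12 to 0.10), Klf16 (-0.12 to 0.30) and Hdac1 (-0.02 to 0.18). For Vitro against Con they were Klf3 (0.02 on FPKM, -0.16 to 0.01), Klf6 (0.01 on FPKM) and Klf7 (0.05 on FPKM, -0.12 to 0.11). For Vivo against Vitro they were Klf5 (0.03 with quality weights), Klf13 (0.25 with quality weights, 0.05 on FPKM, -0.45 to 0.26) and Klf15 (0.15 with the replicate block, 0.46 with quality weights, 0.04 on FPKM, -0.31 to 0.59). The cause was not tested.

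The labels give no link between same-numbered libraries beyond the number, so the numbers were not taken as pairs in the main fit. Across genes, deviations correlated at 0.028 to 0.057 between Vivo and Con, 0.092 to 0.358 between Vitro and Con and -0.015 to 0.112 between Vivo and Vitro. Of 9 libraries, 7 correlated best with their own number. Whether same-numbered libraries share a source or batch was not tested. With the replicate number as a block the members called were 2 in Vivo against Con, 0 in Vitro against Con, 1 in Vivo against Vitro and 1 for any difference, as without it. Counts of Klf13 (25 to 122) and Klf15 (55 to 232) limit the precision of those members.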
